A study of Mus musculus with 23 samples.

Results

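Kruppel-like factors were followed through blood cell development from mouse embryonic stem (ES) cells, with and without induction of the leukaemic fusion protein RUNX1-ETO. The 10 genes were Klf2, Klf3, Klf4, Klf5, Klf6, Klf7, Klf9, Klf10, Klf12 and Klf13. They were found through the RefSeq identifier that the array files give for each probe, and are 10 of 20145 genes with a matched probe and 10 of 15202 that were bright enough to be tested. Each member had 1 matched probe, printed once, and that spot was well above background on all 23 arrays.

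Kruppel-like factors are transcription factors with zinc fingers at the C-terminal end that bind CACCC and GC-rich elements, while their N-terminal parts differ and recruit either coactivators or corepressors. KLF2 and KLF4 are best known in endothelium, where blood flow raises their genes through the kinase ERK5 and MEF2 proteins and where they keep the cells quiescent. KLF3 and KLF12 repress through CtBP, KLF9, KLF10 and KLF13 can recruit Sin3A, and the related KLF1 is the activator of red cell genes.

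RNA was measured on Agilent mouse arrays in 1 colour in ES cell derivatives that all carry a human RUNX1-ETO transgene with an HA tag driven by a TET-responsive promoter. RUNX1 itself is wild type in all groups, and the labels give the strain as C57BL/6. The transgene was targeted into A2lox ES cells, colonies were picked and expanded, and how many clones gave the arrays is not given in the sources used here. Cells of the blast culture were sorted as haemogenic endothelium (HE), which has KIT and Tie2 on its surface but no CD41, as HE2, which has CD41 as well, or as CD41+KIT+Tie2- progenitors, and myeloid progenitors were grown from sorted progenitors in medium with cytokines. Each was taken without doxycycline (uninduced) and with Dox at 0.1 μg per ml (induced), which was added at day 1 of blast culture in the sorted populations and for 12 h in myeloid progenitors. Each group had 3 arrays, except that the progenitors had 2 without and 2 with Dox. An additional uninduced progenitor array, called a technical replicate in 1 label and replicate 3 in another, was left out of the comparisons, and induced myeloid progenitor array 3, whose labels disagree in the same way, was used as replicate 3. No array of cells with Dox but without the transgene was analysed here, so that an effect of Dox itself and of RUNX1-ETO cannot be told apart. The cells were measured in bulk, so that a lower share of cells with a transcript and less transcript per cell cannot be told apart either.

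For the spots other than controls, 48.8 to 78.4% per array were well above background and 0 were saturated. The probe for mouse Runx1t1, which encodes ETO, was higher with Dox in every stage, by 1.24 to 3.96 on the log2 scale, and was called in 3 of the 4. Whether it detects the human transgene was not tested. The sorted labels were set against marker genes: the mean log2 intensity of 8 endothelial markers was 11.86 to 13.42 on uninduced HE arrays and 9.12 to 9.23 on uninduced progenitor arrays, and that of 7 CD41 and early blood markers 9.20 to 9.58 on the former and 12.40 on both of the latter. On uninduced myeloid progenitor arrays 7 erythroid markers averaged 15.13 to 15.61, and all 7 were called higher there than in progenitors. In the same comparison 4 of 5 megakaryocyte markers were higher. Of 4 granulocyte markers 0 were higher and 2 lower, the mean of the list being 8.52 to 9.11 in myeloid progenitors and 9.88 to 10.32 in progenitors, and of 6 macrophage and monocyte markers 1 was higher. All HE and HE2 arrays were on slides 1 and 2 and all myeloid progenitor arrays on slide 3, with induced progenitor array 2. The fitted uninduced progenitor arrays were on slides 1 and 2, so that induced progenitor array 2 shared a slide with neither. The additional uninduced progenitor array, which was not fitted, was on slide 3 as well. Induced progenitor array 2 also had the lowest share of spots well above background, 48.8%. Slide 3 was scanned on a later day than slides 1 and 2.

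Intensities were corrected for background, quantile normalized and put on a log2 scale, on which a difference of 1 is 2-fold. Levels of a member are therefore compared between samples and not with those of another member. A gene was called changed where limma gave an unadjusted P of at most 0.001 and the change was at least 2-fold, with all 22 arrays sharing 1 estimate of the spread.

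Dox raised 4 members in HE, 5 in HE2, 2 in CD41+KIT+Tie2- progenitors and 4 in myeloid progenitors, and it lowered 0 at any stage. Klf4, Klf5, Klf7 and Klf12 rose in HE, Klf2, Klf4, Klf6, Klf7 and Klf12 in HE2, Klf4 and Klf7 in progenitors, and Klf2, Klf5, Klf6 and Klf7 in myeloid progenitors. The share of all tested genes called, in either direction, was 7.09% in HE and 7.22% in HE2, and it was 3.73% and 6.31% in progenitors and myeloid progenitors. Genes called higher with Dox were 4.7%, 5.17%, 3.03% and 5.13% of those tested. In the same order of stages, the median log2 change of the 10 members was 0.92, 1.09, 0.68 and 0.96, compared with -0.01, -0.03, -0.04 and -0.02 over all genes. Klf7 was the only member called in all 4 stages, as were 108 of the 15202 genes, and Klf4 was called in 3. Klf3, Klf9, Klf10 and Klf13 were called in none. For 5 members, Klf2, Klf3, Klf4, Klf7 and Klf12, every induced array lay above every uninduced array of its stage in all 4 stages, as it did for 4.27% of the 14920 genes measured on all arrays.

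**Figure D1:**
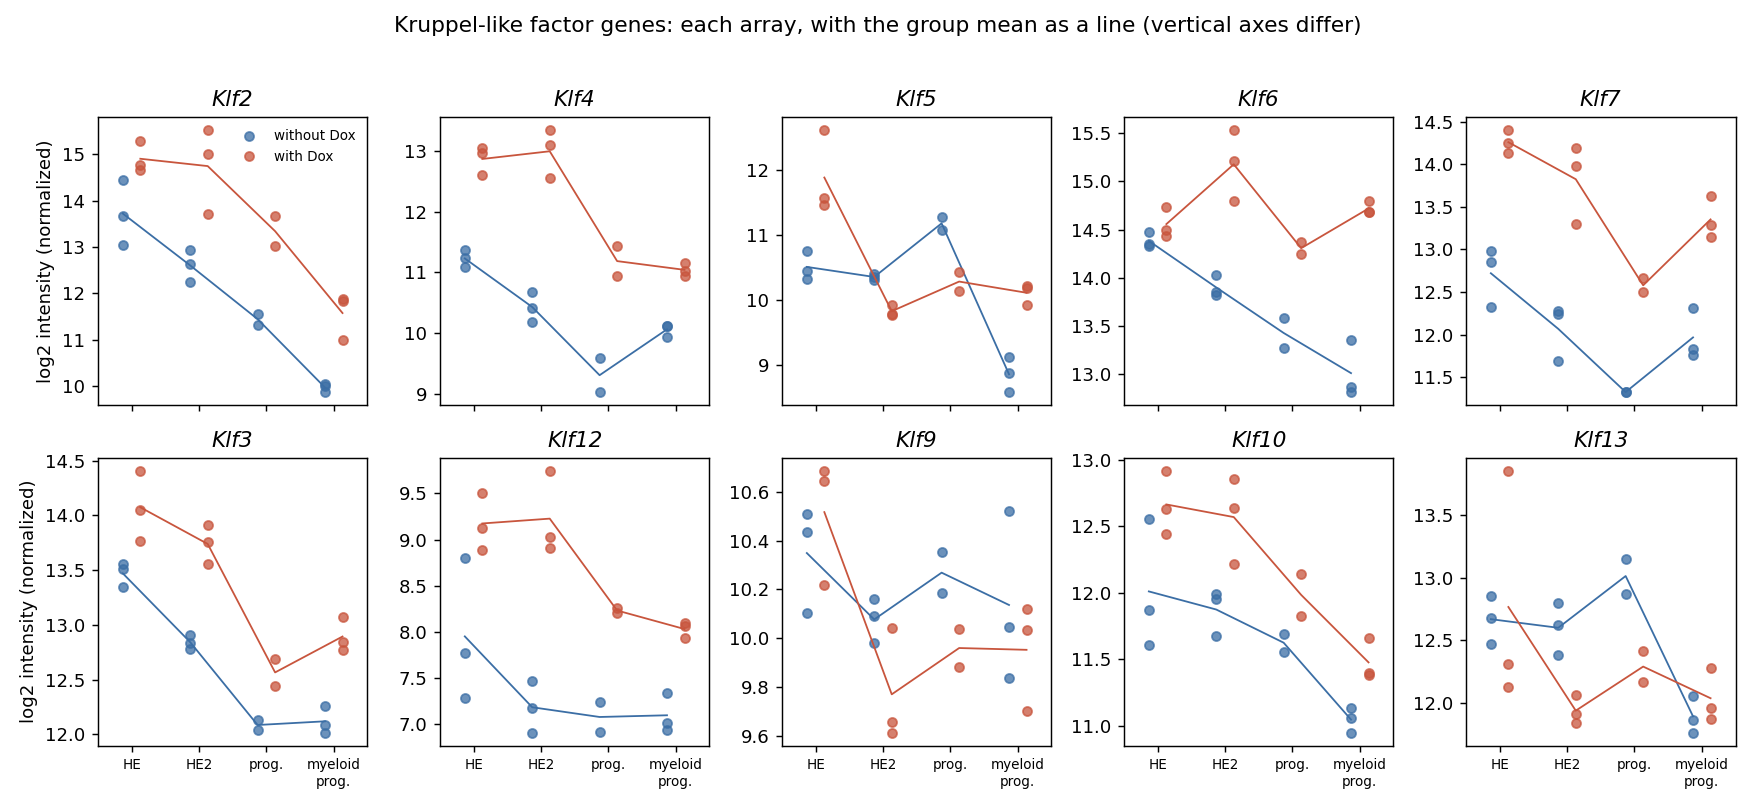
Normalized log2 intensity of each member on every fitted array, in HE, HE2, CD41+KIT+Tie2- progenitors (prog.) and myeloid progenitors, without Dox in blue and with Dox in red. Points are arrays and lines join the group means. The induced arrays of Klf2, Klf4, Klf7, Klf3 and Klf12 lie above the uninduced arrays of the same stage in all 4 stages, whereas those of Klf5 lie above in HE and myeloid progenitors and below in HE2 and progenitors.

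The 250 bases upstream of each start are shown for the 5 members called with Dox in 1 or more stages that the RefSeq promoter table (GRCm38.p6) holds, since these are the genes whose transcript rose. Klf5, also called, is not shown. Capitals mark every GC box (GGGCGG), every CACCC box (CACCC), both on either strand and joined where they overlap, and in Klf2 a match to the MEF2 consensus. Each is written 5′ to 3′ on the strand of its gene.
Klf2 (chr8:72318812-72319061, + strand): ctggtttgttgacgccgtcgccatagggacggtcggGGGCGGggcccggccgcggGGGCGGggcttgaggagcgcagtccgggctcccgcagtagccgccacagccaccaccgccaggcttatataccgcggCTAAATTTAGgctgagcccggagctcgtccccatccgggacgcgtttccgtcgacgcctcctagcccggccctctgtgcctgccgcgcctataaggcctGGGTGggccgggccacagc
Klf4 (chr4:55532476-55532725, - strand): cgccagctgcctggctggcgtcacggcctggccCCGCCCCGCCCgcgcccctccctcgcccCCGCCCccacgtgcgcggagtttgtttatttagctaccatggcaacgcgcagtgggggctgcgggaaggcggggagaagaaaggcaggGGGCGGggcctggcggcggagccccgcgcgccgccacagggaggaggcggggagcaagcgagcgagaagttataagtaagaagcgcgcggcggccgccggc
Klf6 (chr13:5861239-5861488, + strand): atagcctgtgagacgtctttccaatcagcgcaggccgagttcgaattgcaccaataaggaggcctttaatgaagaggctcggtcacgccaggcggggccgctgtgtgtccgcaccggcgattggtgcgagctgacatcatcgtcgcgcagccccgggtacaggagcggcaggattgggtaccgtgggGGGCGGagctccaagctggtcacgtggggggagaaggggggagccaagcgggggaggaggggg
Klf7 (chr1:64121390-64121639, - strand): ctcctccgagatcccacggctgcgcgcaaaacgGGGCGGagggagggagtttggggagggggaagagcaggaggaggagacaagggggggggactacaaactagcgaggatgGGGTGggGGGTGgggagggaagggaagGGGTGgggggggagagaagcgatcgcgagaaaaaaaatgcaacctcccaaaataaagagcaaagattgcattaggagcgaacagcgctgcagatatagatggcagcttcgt
Klf12 (chr14:100149797-100150046, - strand): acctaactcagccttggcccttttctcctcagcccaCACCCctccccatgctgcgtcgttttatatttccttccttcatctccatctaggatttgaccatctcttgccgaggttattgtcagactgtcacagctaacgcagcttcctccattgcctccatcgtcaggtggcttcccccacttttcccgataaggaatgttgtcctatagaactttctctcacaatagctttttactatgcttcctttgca

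Klf2 alone among the 8 members in the table had a MEF2 match, which began 118 bases before the start, while 2.92% of the 32851 stretches of the same length held one. GC boxes lay in 6 of the 8 (32.7% of all stretches), with 4 in Klf4, 2 in Klf2, 1 each in Klf6 and Klf7 and 0 in Klf12, beside 6 in Klf3, 3 in Klf13 and 0 in Klf9, which were not called. CACCC boxes also lay in 6 of 8 (52% of all), with 3 in Klf7, 1 each in Klf2 and Klf12, 5 in Klf3 and 1 each in Klf9 and Klf13, and CCAAT boxes (CCAAT) in 3 of 8, Klf6, Klf9 and Klf13 (33.8% of all). All motifs were searched on both strands. The RUNX core TGTGGT was in 0 of the 8 on either strand, compared with 14% of all stretches. These are matches of letters in a short window, and binding was not measured here.

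Klf4, the factor of endothelial quiescence that also acts in monocytes and in ES cells, had the largest change with Dox of any member in HE and HE2 and the largest called change in progenitors. In HE it read 11.23, 11.37 and 11.08 on the uninduced arrays and 12.96, 13.05 and 12.60 on the induced ones. In HE2 it read 10.42, 10.68 and 10.19 without Dox and 12.55, 13.10 and 13.34 with Dox. In both stages all induced arrays lay over 1 above all uninduced arrays. The log2 change was 1.64 in HE (standard error (SE) 0.215, n = 3 and 3, limma adjusted P = 3.37e-05) and 2.57 in HE2 (SE 0.215, n = 3 and 3, limma adjusted P = 4.72e-07), or 3.12-fold and 5.94-fold. On slide 1 alone these changes were 1.66 and 2.00, and on slide 2 they were 1.74 and 3.03. CD41+KIT+Tie2- progenitors gave 9.59 and 9.02 without and 10.94 and 11.43 with Dox, where the induced arrays were again the higher ones, a change of 1.88 (SE 0.263, n = 2 and 2, limma adjusted P = 0.000237), and 1.35 on slide 1. Myeloid progenitors gave 9.94, 10.12 and 10.12 without and 11.16, 11.03 and 10.94 with Dox. Here too the arrays did not overlap, but the change of 0.98 fell just short of 2-fold (SE 0.215, limma adjusted P = 0.00420). It passed 2-fold when uninduced array 2 or 3 or induced array 3 was left out, at 1.01, 1.01 and 1.03.

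Klf2, which works beside Klf4 in endothelium and also keeps T cells quiescent, had a lower mean at each later stage without Dox. It read 13.05, 13.68 and 14.44 in uninduced HE, 12.24, 12.63 and 12.94 in HE2, 11.33 and 11.56 in progenitors and between 9.87 and 10.04 on the 3 myeloid progenitor arrays. With Dox it read 14.65, 14.76 and 15.29 in HE, 13.70, 15.52 and 15.01 in HE2, 13.67 and 13.02 in the progenitors, and 11.89, 11.84 and 11.00 in the myeloid progenitors. Every induced array was above every uninduced array of its stage, although induced HE2 array 1 and induced myeloid progenitor array 3 stood clearly below the others of their group. The change was 2.14 in HE2 (SE 0.399, limma adjusted P = 0.00104) and 1.61 in myeloid progenitors (SE 0.399, limma adjusted P = 0.0103), both called. The changes of 1.18 in HE (SE 0.399) and 1.90 in progenitors (SE 0.489) were over 2-fold but missed the P value, with limma adjusted P = 0.0529 and 0.0271. The call in myeloid progenitors was lost when any array but induced array 3 was left out, with changes from 1.45 to 1.64. It was also lost with scaling to the 75th percentile, at 1.47, and with the stages normalized apart, at 1.51. With the slide as a block the change in progenitors was 2.61 and was called. Within slides, the change in HE was 1.29 on slide 1 and 0.59 on slide 2, that in HE2 1.27 and 2.33, and that in progenitors 2.34 on slide 1.

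Markers of several cell types also moved with Dox. Of 8 endothelial markers 1 rose in HE, 4 each rose in HE2 and progenitors, 7 rose in myeloid progenitors, and 0 fell. The array means of this list, which overlapped in HE and not in the other stages, were 11.86 to 13.42 without and 12.38 to 13.42 with Dox in HE, 10.87 to 11.71 and 12.78 to 13.10 in HE2, 9.12 to 9.23 and 11.11 to 11.24 in progenitors, and 9.20 to 10.03 and 11.75 to 12.10 in myeloid progenitors. Every marker of the list was well above background on at least 1 array of each group. Of 7 erythroid markers 2 rose in HE and 4 in HE2, with 3 and 0 in progenitors and myeloid progenitors. Their array means were 9.09 to 9.40 without and 10 to 10.86 with Dox in HE, 9.77 to 10.43 and 11.15 to 11.56 in HE2, and 11.72 to 11.96 and 13.18 to 13.57 in progenitors, without overlap. Mesenchymal, smooth muscle and cardiac markers were lower with Dox in HE (4 of 8) and HE2 (5 of 8), and 4 of 5 megakaryocyte markers were lower in myeloid progenitors. Of 7 CD41 and early blood markers 1 fell in each of HE, HE2 and progenitors. The part of these cell types in the changes of the members was not tested.

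Genes that act upstream or downstream of KLF2 and KLF4 in endothelium were read beside them. Of 12 tested genes from the ERK5, MEF2 and CCM pathway, 0 changed in HE and 1 rose in each of the other 3 stages, Rasip1, which encodes an endothelial RAS-interacting protein. Its change was 3.05 in myeloid progenitors, and 1.24 and 1.25 in HE2 and progenitors. The ERK5 gene Mapk7 and the MEF2 genes Mef2a, Mef2c and Mef2d were called in none of the 4 stages. Of 7 endothelial targets, Edn1, the endothelin gene that KLF2 is known to repress, fell in HE by 1.91 (limma adjusted P = 0.00154) and the other 6 were not called. In HE2, Thbd (thrombomodulin) rose by 1.46 and S1pr1, a sphingosine phosphate receptor, by 1.41. In progenitors 4 of 7 rose, Aqp1 by 2.61, Edn1 by 2.14, Nos3 (endothelial nitric oxide synthase) by 2.12 and Thbd by 1.70. The rise of Edn1 there was opposite in direction to its change in HE. Klf2 was called in neither of these stages, and its part in the changes of Edn1 was not tested. In myeloid progenitors Thbd rose by 3.43, Nos3 by 2.20 and Aqp1 by 2.07. Over the stages in that order, the median log2 change of the 7 targets was -0.50, 0.36, 1.70 and 1.31. Since the list was not split into genes that KLF2 raises and genes that it represses, such as Edn1, its median has no single direction as a measure of KLF2 action.

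**Figure D2:**
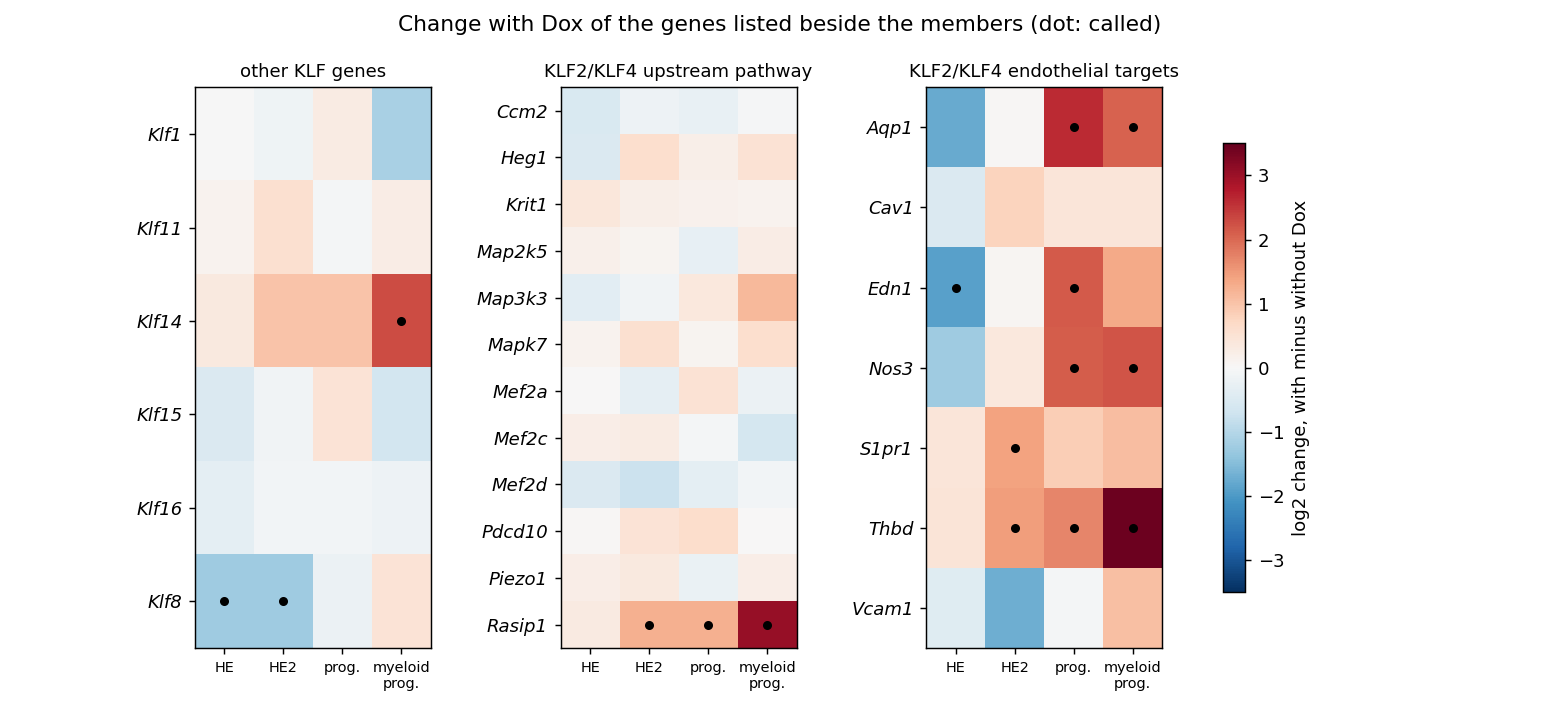
Log2 change with Dox of other KLF genes, genes upstream of KLF2 and KLF4 and their endothelial targets (vertical) in each stage (horizontal; prog., CD41+KIT+Tie2- progenitors). Red is higher and blue lower with Dox, and a dot marks a called gene. Rasip1 is called in 3 stages, and Edn1 is lower in HE and higher in progenitors.

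Klf7, an activator best known from neurons and from early T cell development, was the member that rose in all stages. It read 12.98, 12.85 and 12.33 without and 14.25, 14.13 and 14.40 with Dox in HE, and 12.24, 12.27 and 11.69 without and 13.98, 13.30 and 14.19 with Dox in HE2. Progenitors gave 11.33 and 11.32 without and 12.66 and 12.50 with Dox, and myeloid progenitors 12.31, 11.83 and 11.76 without and 13.62, 13.28 and 13.15 with Dox. All induced arrays lay above all uninduced arrays in each stage. The log2 changes were 1.54 (SE 0.240), 1.76 (SE 0.240), 1.25 (SE 0.295) and 1.39 (SE 0.240), with limma adjusted P = 0.000190, 6.71e-05, 0.0151 and 0.000568. Leaving out any of the 4 progenitor arrays took the progenitor call away, with changes from 1.17 to 1.34, as did the slide as a block, at 1.19. Within slide 1 the change was 1.33 in HE, 1.73 in HE2 and 1.33 in progenitors, and within slide 2 it was 1.94 in HE and 2.06 in HE2.

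**Figure D3:**
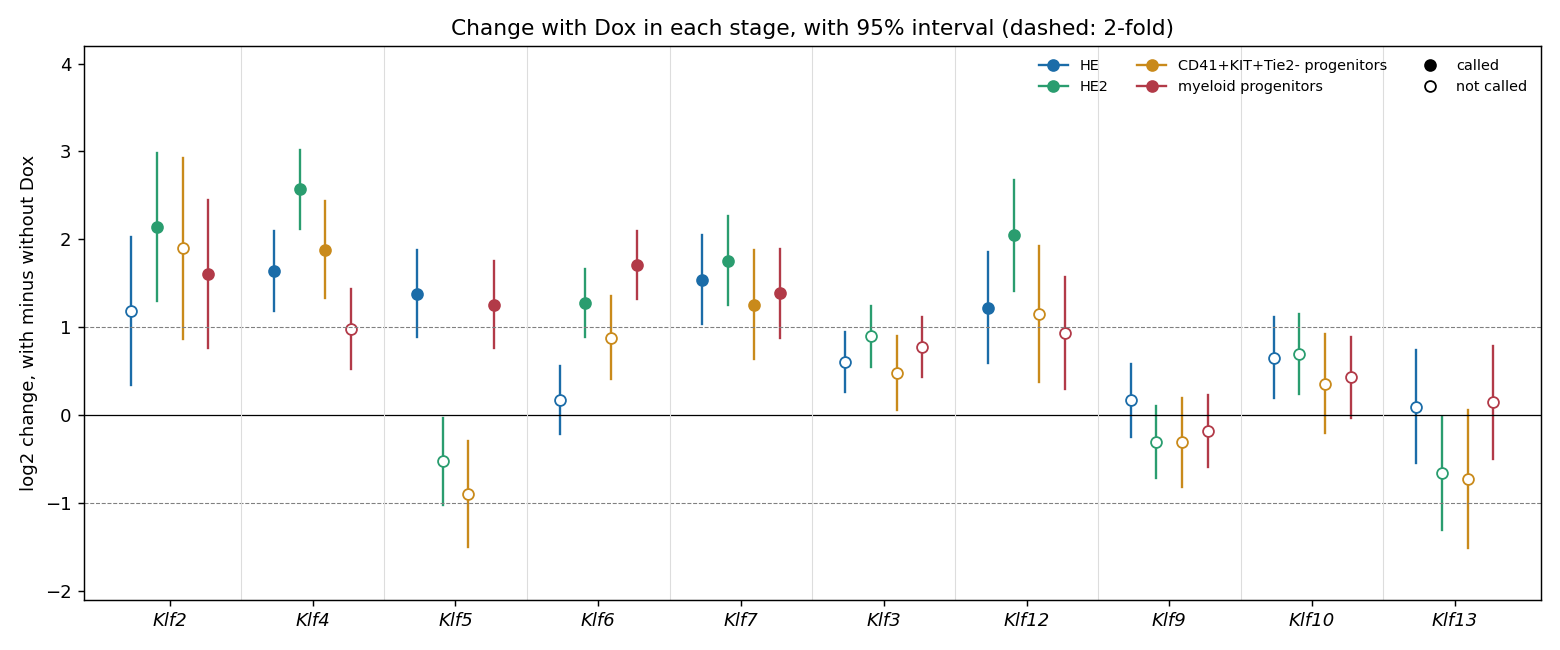
Log2 change with Dox (induced minus uninduced) of each member in the 4 stages. Points are limma estimates with their 95% intervals, filled where the gene was called, and dashed lines mark 2-fold. Klf7 is filled in all 4 stages, Klf4 in 3, and Klf5 lies on both sides of 0.

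Klf6, a factor first known from the response to injury, rose with Dox in HE2 and myeloid progenitors. In HE it read 14.33, 14.35 and 14.48 without and 14.74, 14.44 and 14.50 with Dox, so that the arrays overlapped, and in HE2 14.03, 13.85 and 13.82 without and 14.80, 15.53 and 15.21 with Dox. Progenitors gave 13.58 and 13.28 without and 14.37 and 14.24 with Dox, and myeloid progenitors 12.81, 13.35 and 12.87 without and 14.68, 14.68 and 14.79 with Dox. In these 3 stages no induced array overlapped with the uninduced ones. The change was 0.17 in HE (SE 0.184, 95% interval -0.21 to 0.56, limma adjusted P = 0.636), 1.28 in HE2 (SE 0.184, limma adjusted P = 0.000104), 0.88 in progenitors (SE 0.225, limma adjusted P = 0.0263, under 2-fold) and 1.71 in myeloid progenitors (SE 0.184, limma adjusted P = 4.42e-06). Within slides the change in HE was 0.40 and -0.01 on slides 1 and 2, and that in HE2 0.85 and 1.55.

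Klf5, known from ES cells, smooth muscle and gut epithelium, rose with Dox in HE and myeloid progenitors and was not called in the stages between. In HE it read 10.76, 10.33 and 10.45 without and 11.58, 11.47 and 12.62 with Dox, and in myeloid progenitors 8.58, 8.88 and 9.12 without and 10.22, 10.20 and 9.93 with Dox. In HE2 it read 10.36, 10.41 and 10.31 without and 9.93, 9.77 and 9.79 with Dox, and in progenitors 11.08 and 11.29 without and 10.44 and 10.14 with Dox. The arrays did not overlap in any stage, with the induced ones on top in HE and myeloid progenitors and below in the other two. Klf5 rose by 1.38 in HE (SE 0.236, limma adjusted P = 0.000454) and by 1.26 in myeloid progenitors (SE 0.236, limma adjusted P = 0.00111). Its changes of -0.53 in HE2 (SE 0.236, limma adjusted P = 0.142) and -0.90 in progenitors (SE 0.288, limma adjusted P = 0.0814) were not called. On slides 1 and 2 alone the change was 1.03 and 1.60 in HE and -0.45 and -0.53 in HE2. Of the ES cell markers Pou5f1, Nanog, Zfp42, Esrrb and Dppa5a, 3 were bright enough to be tested and 0 changed with Dox in any stage. The mean of the 5 was 6.51 to 6.74 in uninduced and 6.63 to 7.05 in induced HE, and 6.29 to 6.53 and 6.37 to 6.75 in HE2. Epithelial and endoderm markers fell in HE (2 of 4 tested) and in HE2 (2 of 4), and 1 of 4 rose in progenitors and 2 of 4 in myeloid progenitors. Their part in the changes of Klf5 was not tested.

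Whether the response to Dox differed between stages was tested with interaction terms. Between HE2 and HE, the response of Klf5 differed by -1.91 (SE 0.333, limma adjusted P = 0.0110) and that of Klf6 by 1.1 (SE 0.260, limma adjusted P = 0.0531), while 1.34% of all genes were called. The Klf6 call was lost when any 1 of 8 of the 12 arrays was left out, with differences from 0.93 to 1.12, and Klf4 was called when induced HE2 array 1 was left out, at 1.15. Between myeloid progenitors and HE, the response of Klf6 was larger by 1.53 (SE 0.260, limma adjusted P = 0.00111), beside 4.72% of all genes. Stage, slide and the length of induction differ together in that comparison and cannot be told apart. The Klf5 responses in these stages differed by -0.12 (95% interval -0.82 to 0.58). Between progenitors and HE2 limma called 0 members, 0 had an unadjusted P under 0.05, and 0.645% of all genes were called. For Klf7 the difference between HE2 and HE was 0.22 (95% interval -0.50 to 0.93) and that between myeloid progenitors and HE -0.15 (95% interval -0.87 to 0.56).

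Klf12 and Klf3 encode repressors that bind CtBP. Klf12 read 7.29, 7.77 and 8.80 without and 9.51, 8.89 and 9.13 with Dox in HE and 7.17, 6.91 and 7.47 without and 8.90, 9.03 and 9.75 with Dox in HE2. In progenitors it read 6.92 and 7.24 without and 8.25 and 8.21 with Dox, and in myeloid progenitors 6.94, 7.34 and 7.01 without and 8.09, 7.93 and 8.07 with Dox. Uninduced HE array 3 was far above the other uninduced HE arrays and almost level with the lowest induced one. Klf12 rose by 2.04 in HE2 (SE 0.301, limma adjusted P = 0.000131), the change being 1.86 on slide 1 and 1.92 on slide 2. In HE it rose by 1.22 (SE 0.301, limma adjusted P = 0.00854), but by 1.98 on slide 1 and 0.21 on slide 2. Without uninduced array 1 or 2 or induced array 1 or 3 the HE call was lost, with changes from 0.89 to 1.25, and it was also lost with the slide as a block, at 1.09. Its changes of 1.15 in progenitors and 0.93 in myeloid progenitors were not called (limma adjusted P = 0.0792 and 0.0462).

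Klf3, whose protein represses targets of KLF1 in red cells, differed by less than 2-fold with Dox everywhere. Its changes were 0.60 in HE and 0.90 in HE2, then 0.48 and 0.77 in progenitors and myeloid progenitors. The limma adjusted P was 0.0162, 0.000884, 0.186 and 0.00316. In HE2, where the change was largest, Klf3 read 12.84, 12.78 and 12.91 without and 13.56, 13.75 and 13.91 with Dox. The genes for CtBP, Sin3, the histone deacetylases and the acetylases that work with these factors, 10 in all, were read beside them, and 0 of 10 were called in any of the 4 stages. Their median log2 change lay between -0.09 and 0.17.

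Klf9, Klf10 and Klf13, the members that can bind Sin3A, were called in no stage. Klf10, which TGF-beta induces, was higher with Dox by 0.65 in HE and 0.69 in HE2 (limma adjusted P = 0.0510 and 0.0355), both under 2-fold. In HE its arrays overlapped, since uninduced array 3 at 12.55 was above induced array 2 at 12.44, and on slide 2 the difference was -0.01. Klf9, which glucocorticoid and thyroid hormone induce, stayed between 9.61 and 10.69 on all arrays. Of 7 glucocorticoid inducible genes Sgk1 rose with Dox in HE2, progenitors and myeloid progenitors and Zbtb16 fell in the same 3 stages, while the receptor gene Nr3c1 rose in HE and HE2. Klf13 was lower on all induced arrays than on all fitted uninduced ones in HE2 and progenitors, by differences of -0.66 and -0.72 (limma adjusted P = 0.156 and 0.292), which were not called. The additional uninduced progenitor array read 12.11, below both induced ones, of which array 2, on the same slide, read 12.17. With 2 fitted arrays against 2, no member overlapped in progenitors, 7 being higher and 3 lower with Dox. The share of all genes separated in progenitors was not counted, so that this count is not a result about the members. In HE, induced array 3 read 13.86 for Klf13 and the other induced arrays 12.13 and 12.31. Among the induced HE arrays, array 3 was also the highest for Klf2, Klf5 and Klf7 and the lowest for Klf4. Of all HE arrays it had the lowest share of spots well above background, 59.2%.

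Of the 7 other KLF genes on the list, 6 were tested and Klf17 was too dim. Klf8 fell by 1.25 in HE and by 1.26 in HE2 (limma adjusted P = 0.000256 and 0.000299), and Klf14 rose by 2.28 in myeloid progenitors (limma adjusted P = 0.000144). Klf1, Klf11, Klf15 and Klf16 were not called with Dox. None of the 8 tested SP genes, whose proteins share the zinc fingers of the family, was called with Dox in any stage, and their median change lay between -0.09 and 0.10. Immediate early genes, which rise with handling and mitogens as several KLF genes do, had 2 of 15 called with Dox in HE2, Egr2 at 1.40 and Zfp36 at 1.34, and 0 in the other stages.

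Without Dox, all 10 members read lower in HE2 than in HE on average, but limma called 0 of them, beside 5.07% of all genes. The lowest adjusted P were those of Klf3 and Klf4 (limma adjusted P = 0.0181 and 0.0214), both changed by under 2-fold. The median change was -0.56 for the members and 0.03 over all genes. Klf2 had the largest difference, -1.12 (SE 0.399, limma adjusted P = 0.0873), with all HE2 arrays below all HE arrays. It was -0.93 on slide 1 and -1.5 on slide 2. The arrays of Klf3, Klf4, Klf6 and Klf7 did not overlap either. How many of all genes were separated in this step was not counted. Endothelial markers had a median change of -1.06 in the same step, with array means of 11.86 to 13.42 in HE and 10.87 to 11.71 in HE2, mesenchymal, smooth muscle and cardiac markers had a median of -1.0, and 4 of 7 CD41 and early blood markers rose. Their part in the lower levels of the members was not tested. From HE2 to progenitors without Dox, Klf4 fell by 1.13 (SE 0.240, limma adjusted P = 0.00489) and was the only member called, beside 5.39% of all genes. That call was lost without uninduced HE2 array 2 or uninduced progenitor array 2, at -1.0 and -0.84. The mean of the endothelial list was 10.87 to 11.71 on the HE2 and 9.12 to 9.23 on the progenitor arrays, and its part in the change of Klf4 was not tested. Klf5 was higher in progenitors than in HE2 by 0.83 (limma adjusted P = 0.0646), which was not called.

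From progenitors to myeloid progenitors without Dox, Klf5 fell by 2.33 (SE 0.263, limma adjusted P = 3.87e-06), or 5.02-fold, and the other members were not called, while 13.9% of all genes were. Stage and slide differ together among the fitted arrays of this step. With the slide as a block the Klf5 difference was -2.0 and no longer called. That block linked slide 3 to slides 1 and 2 only through induced progenitor array 2, with 48.8% of spots well above background. Klf2 and Klf13 differed by -1.47 and -1.12 and missed the P value. Slide 3 also carried the additional array of uninduced progenitors, which was not fitted. It read 10.60 for Klf5 and 11.38 for Klf2, where uninduced myeloid progenitors read 8.58 to 9.12 and 9.87 to 10.04. For Klf13 it read 12.11, near their 11.76 to 12.05. The part of the slide in these differences was not tested. Other lists moved with this step. The mean of the erythroid markers was 11.72 to 11.96 in progenitors and 15.13 to 15.61 in myeloid progenitors, that of the megakaryocyte markers 9.0 to 9.64 and 11.67 to 12.02, and that of 15 immediate early genes 10.89 to 11.27 and 9.26 to 9.79, of which 7 fell. Their part in the changes of Klf5, Klf2 and Klf13 was not tested. Klf1, in contrast, rose by 3.73 in the same step and by 2.72 from HE2 to progenitors.

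From HE to HE2 with Dox, Klf5 fell by 2.06 (SE 0.236, limma adjusted P = 3.18e-05), or 4.17-fold, by 1.65 on slide 1 and 2.27 on slide 2, and was the only member called, beside 3.1% of all genes. Klf2 and Klf4 differed by -0.16 (95% interval -1.0 to 0.68) and 0.13 (95% interval -0.33 to 0.58) between these induced stages. From HE2 to progenitors with Dox, Klf4 fell by 1.81, Klf3 by 1.17 and Klf7 by 1.25 (limma adjusted P = 6.01e-05, 0.000267 and 0.00374), beside 7.36% of all genes. Klf3 read 12.69 and 12.44 on the induced progenitor arrays, all below the induced HE2 arrays given above, and the arrays of Klf4 and Klf7 did not overlap either. The Klf7 call was lost when either progenitor array, or HE2 array 1 or 3, was left out, with changes of -1.33 to -1.06, and with the slide as a block, at -1.36. Without induced HE2 array 1, Klf2 and Klf6 were called as well, at -1.92 and -1.06.

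**Figure D4:**
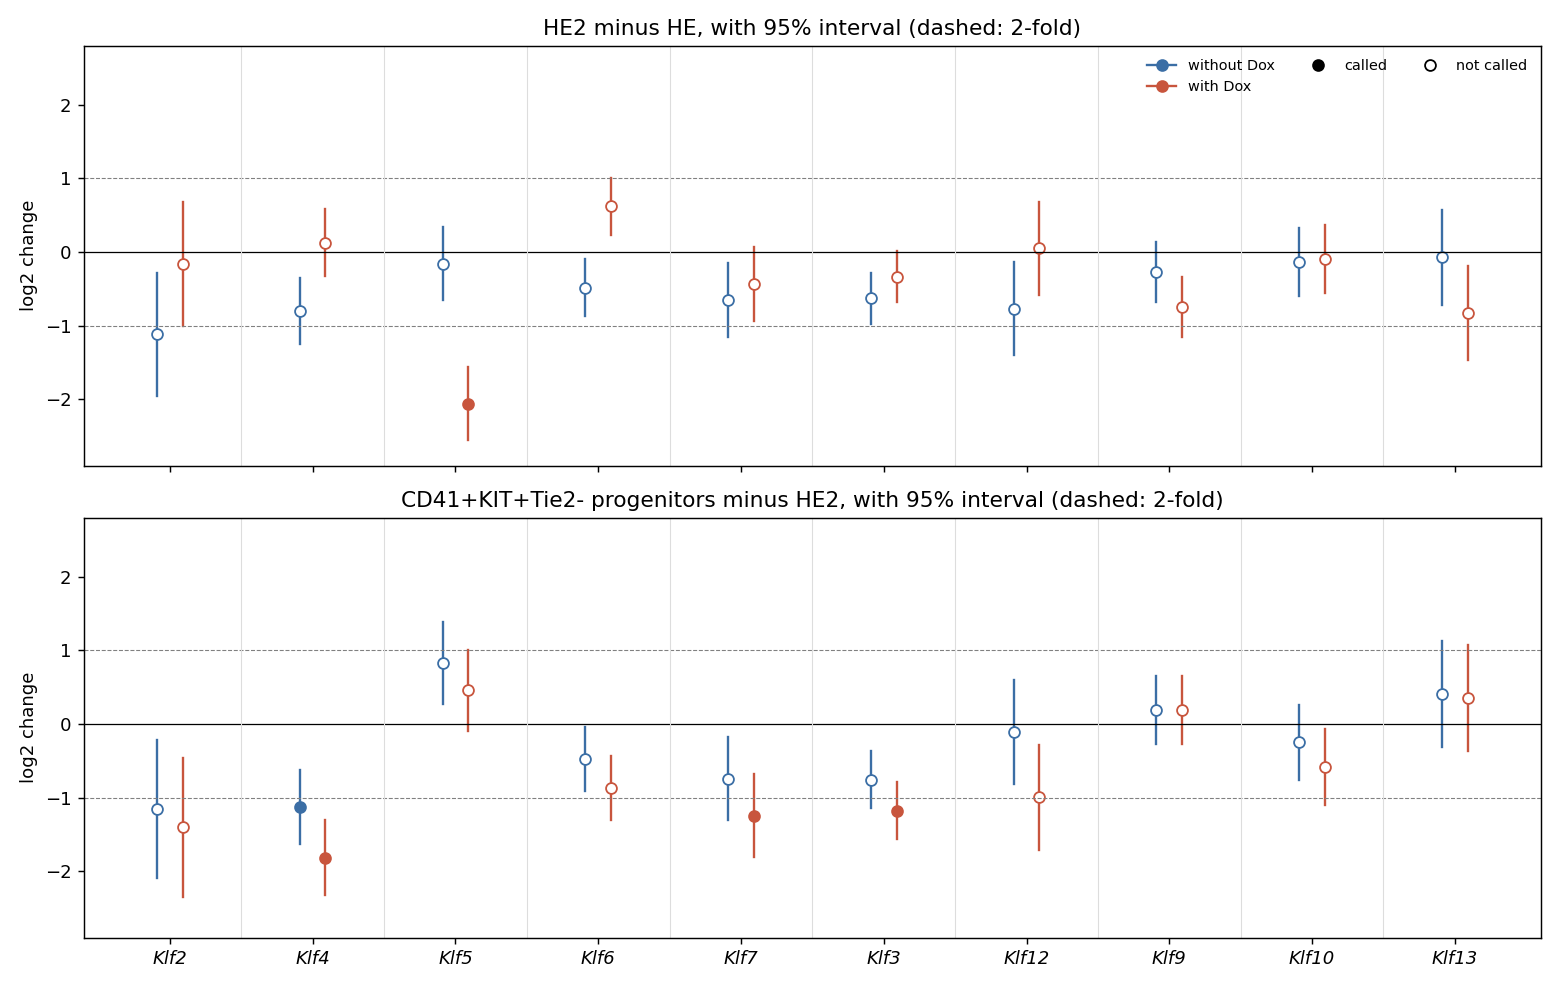
Log2 change of each member from HE to HE2 (top) and from HE2 to CD41+KIT+Tie2- progenitors (bottom), without Dox in blue and with Dox in red. Points are limma estimates with 95% intervals, filled where called, and dashed lines mark 2-fold. In the top panel all blue points lie below 0 and Klf5 with Dox is the only filled point.

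Ordered by mean level over the 8 groups, the induced HE and HE2 groups stood highest for Klf2, Klf3, Klf4, Klf7, Klf10 and Klf12, and in each of these the arrays of those neighbours overlapped. Klf2 was lowest in uninduced myeloid progenitors, with no overlap with the next group. Klf4 and Klf7 were lowest in uninduced progenitors, also with no overlap with the next group, uninduced myeloid progenitors. Klf6 was highest in induced HE2, but its lowest array there was only 0.0027 above the highest of induced myeloid progenitors, which were on another slide. Klf5 was highest in induced HE and second in uninduced progenitors, and lowest in uninduced myeloid progenitors, without overlap at any of these places. For Klf9 and Klf13 every pair of neighbours in the order overlapped, so that no place in it was set apart by the arrays.

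Across the 22 arrays, which share stages, slides and normalization, the members varied together to different degrees. The highest correlation between members was that of Klf2 and Klf10 (Pearson's r = 0.95), followed by Klf4 and Klf7 (0.91) and Klf4 and Klf12 (0.90), and 13 of the 45 pairs were above 0.8. Klf5 was nearest to Klf13 (0.76) and Klf6 and Klf9 were farthest apart (-0.27). Among all other tested genes, the nearest pattern to Klf2 was that of Slc16a13 (0.97), to Klf3 Fstl1 (0.98), to Klf4 Zswim6 (0.96), to Klf7 Hopx (0.96), to Klf12 Selenop (0.96), to Klf10 Fbxo11 (0.96) and to Klf6 Srgap1 (0.94). Klf5 was nearest to Itpkc (0.88), Klf13 to Ipo4 (0.90) and Klf9 to Tnfrsf19 (0.76). These correlations describe the arrays and carry no test.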

How the data were processed

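RNA was hybridised in 1 colour to 23 Agilent arrays. The authors deposited spot and local background intensity from Feature Extraction (version 10.7.3.1 in the file headers, 10.7.1.1 in the submitters' processing notes), not normalized between arrays. They also deposited log2 values per array, described as normexp corrected with an offset of 16 and quantile normalized. The lowest of these, 5.65, equals that recomputed here with an offset of 50 and not that with 16 (4.02), and they served as an alternative. The number of columns of values left out was 0.

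Here, median intensities were corrected with normexp (offset 16), 3671 control spots and outlier spots were left out, and all arrays were quantile normalized together. Of 55681 probes 26582 matched a symbol in RefSeq (GRCm38.p6), used for names only because the array was annotated on another build, and the brightest probe stood for a gene. Genes that reached 6.5 (log2 intensity) on 1 array or more, 15202 in number, were fitted with a mean per group on 22 arrays (limma 3.58.1 in R 4.3.3, 14 residual degrees of freedom). P values were adjusted by the method of Benjamini and Hochberg across these genes. The scripts were tested on simulated data. The number of arrays limits the precision. The sources used here do not say whether replicate arrays came from separate differentiations, so that P values measure the spread between these arrays.

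By rule all 10 members were tested in every comparison, although not all are named for each. Of other lists, genes past the threshold and markers were to be named. Some results are not reported here. Members and lists were chosen with earlier results of these data known. By number, uninduced HE and HE2 arrays deviated together (r = 0.39, 0.80 and 0.61 across genes), and those of other groups did not in every pair. The fit had no block, and 1 alternative had the replicate number as a block in all groups. Alternatives were other offsets, normalizations, filters, probe rules, thresholds, blocks and samples.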

Additional observations from a re-analysis of the deposited data

Results flagged for a closer look

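Responses to Dox that differed between stages were singled out by the interaction terms, each tested with limma. The response of Klf5 was lower in HE2 than in HE by a log2 difference of -1.91, with every induced array above the uninduced ones in HE and below them in HE2. The response of Klf6 was larger in HE2 than in HE by 1.1 (adjusted P = 0.0531) and larger in myeloid progenitors than in HE by 1.53 (adjusted P = 0.00111). In the second of these, stage, slide and length of induction cannot be told apart.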

How the results depend on the processing

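Over 36 alternative settings, 2437 of 2510 recomputed member changes stayed on their side of the threshold, 46 lost the call, 27 gained it and 0 called changes reversed. Most of these changes were not called in the main fit, so they could gain a call but not lose one. Using the mean of a gene's probes left all 120 values on their side, since each member had 1 probe. Changing the filter moved none of them either. The number of members changed with Dox in HE was 4 and became 2 when only the compared groups were fitted. In progenitors it was 2 and became 1 with scaling to the 75th percentile, 4 at a 2-fold change alone and 0 with only the compared groups, and it was 1 without any single array (Klf7 lost the call). In myeloid progenitors it was 4 and became 3 with scaling to the 75th percentile and with the stages normalized apart (Klf2 lost the call), and ranged from 3 to 5 with single arrays left out. From HE to HE2 without Dox it was 0 and became 1 at a 2-fold change alone. From HE2 to progenitors without Dox it was 1, became 2 at a 2-fold change alone and 0 with only the compared groups, and ranged from 0 to 1 with single arrays left out. From progenitors to myeloid progenitors it was 1, became 2 with scaling to the 75th percentile, 3 with a threshold of 0.05 on adjusted P, at a 2-fold change alone and with only the compared groups, and 0 with the slide as a block. From HE2 to progenitors with Dox it was 3 and became 1 with only the compared groups. The number whose response differed between HE2 and HE was 2, became 1 with scaling to the 75th percentile, with a threshold of 0.05 on adjusted P and with only the compared groups, and ranged from 1 to 3 with single arrays left out. In HE with Dox, Klf12 lost the call with the slide as a block, and Klf2 gained it at a 2-fold change alone. In HE2, Klf2 lost the call with only the compared groups. In progenitors, Klf2 gained the call with stages normalized apart, at 0.05 on adjusted P, with the slide block and with the additional array. From induced HE2 to progenitors, Klf2 gained it at 0.05 on adjusted P and Klf6 with 75th percentile scaling. Klf7 lost it with the slide block. Fitting only the compared groups leaves fewer residual degrees of freedom and gives each comparison its own estimate of the spread. In that setting 9 calls of members were lost and 2 gained. The cause of these and of the other changes was not tested.

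With the replicate number as a block, in all groups, paired by number or not, the fit moved the number from 1 to 2 in the step from progenitors to myeloid progenitors (Klf2 added) and from 2 to 1 for the difference between HE2 and HE (Klf6 lost), and added Klf2 to the members called with Dox in progenitors (3 in all). It changed no other call of a member. Scaling to the 75th percentile moved the median log2 change of all genes with Dox to -0.19 in progenitors and -0.15 in myeloid progenitors, and to -0.25 from progenitors to myeloid progenitors. The share of all genes called with Dox in progenitors, 3.73%, ranged from 1.42 to 9.31% over the settings, and that from progenitors to myeloid progenitors, 13.9%, from 3.78 to 21.3%. Other probes of a gene were not tried, since each member had 1. Groups of 2 arrays, induced progenitor array 2 on slide 3, and 1 slide for all myeloid progenitors limit the progenitor and myeloid comparisons.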

Other observations

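The additional array of uninduced progenitors entered no comparison of the main fit and was on slide 3 with induced progenitor array 2. For Klf2 it read 11.38, between the 2 fitted uninduced progenitor arrays, and for Klf4 9.39, also between them. It read 10.60 for Klf5, below both fitted uninduced arrays and above both induced ones, and 12.11 for Klf13, below all 4 progenitor arrays. For Klf6 it read 13.46 and for Klf7 11.03, and for Klf12 7.61, above both uninduced and below both induced arrays.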
